A study of Mus musculus with 2 samples.

Results

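Mir21a is the mouse gene of the microRNA miR-21, measured here in the fetal intestine at the level of its hairpin. It was taken as the row of the deposited gene tables whose Ensembl identifier, ENSMUSG00000065455, is named Mir21a in the GENCODE annotation, and it is 1 of 1973 miRNA genes in the tables. The data are microRNA-seq libraries, made from RNA of less than 30 nucleotides, of intestine from healthy B6NCrl mouse embryos at embryonic day 16.5. There are 2 libraries in 1 group, named as biological replicates from separate tissue samples and each a pool of male and female embryos without any treatment or engineered allele. For replicate 2 the labels give 41 embryos, and for replicate 1 they give no number. The design therefore holds no contrast between conditions, and the values below describe the level of Mir21a among the miRNA genes and its spread between the replicates.

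A microRNA is cut from a hairpin transcript and guides Argonaute proteins to messenger RNAs, mainly through the seed, bases 2 to 8 from its 5′ end. miR-21 is known for repressing Pdcd4 and Spry1, which restrain growth signalling, and its gene is switched on by STAT3 and AP-1. In the gut it is best known for being raised in inflamed mucosa and in colorectal tumours, and in other organs it is known from fibroblasts during fibrosis.

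The hairpin of 92 bases lies on the minus strand of mm10, at chr11:86584067-86584158. GENCODE M21 places it inside Vmp1, a gene of autophagosome formation read on the same strand. It overlaps exon 12 of 12 of the Vmp1 transcript, in the 3′ untranslated region, where it begins after 1152 of the region's 1446 bases and ends 202 bases before the transcript's end. The transcript that is cut into Mir21a is known to be read partly from a promoter of its own inside Vmp1. Gene counts do not tell the arms of the hairpin apart, so the level given is that of both arms together. Both mature arms are shown because the seed defines what the gene can repress, and the other genes named after miR-21 are set beside them because reads of near copies could have been exchanged with Mir21a. All are credited to RefSeq on GRCm38.p6, the same assembly, in 5′ to 3′ direction with the seed in capitals.
miR-21a-5p: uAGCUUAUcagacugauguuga
miR-21a-3p: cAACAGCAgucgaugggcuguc
miR-21c: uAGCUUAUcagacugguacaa
miR-21b: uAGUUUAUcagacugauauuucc

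Among the 869 of 1973 genes matched by symbol to RefSeq sequences, Mir21a was the sole source of counts for its seed. The seeds of the other genes were not looked at. Among the RefSeq mature miRNAs, the seed of miR-21a-5p is carried by 1 further gene, Mir21c on chromosome 8, and the seed of miR-21a-3p by none. Mir21c had 0 counts in both libraries, which allows up to 0.704 CPM in replicate 1 and 0.528 CPM in replicate 2 at a limit of 3 counts. CPM are counts on the strand of the gene per 1000000 such counts over all miRNA genes. Mir21b on chromosome 3 also had 0 counts in both libraries. Its mature sequence differs inside the seed, by C4U counted from the 5′ end of miR-21a-5p, whereas that of miR-21c differs only from A16G onwards. Mir21a thus held 100% of the joint counts of Mir21a and Mir21c in both libraries. The exact Clopper-Pearson 95% lower bound of that share was 99.9946% in replicate 1 and 99.9966% in replicate 2. Mir590, whose human relative is known to carry the same seed, is not analysed here.

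Reads that map to several loci were left out of the gene counts, at 26.2% and 25.7% of reads in replicates 1 and 2, so the longest stretch shared with another hairpin bears on how much of a gene's signal is counted. For miR-21a-5p, of 22 bases, that stretch was 15 bases, shared with Mir21c, and for miR-21a-3p it was 10 bases. The search covered 1005 RefSeq hairpins and not the rest of the genome.

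Mir21a was among the abundant miRNAs of the fetal intestine. Replicate 1 held 68094 counts of Mir21a among 4261976 counts of all genes, and replicate 2 held 109520 among 5680764. These counts correspond to 15977 CPM in replicate 1, with an exact Clopper-Pearson 95% interval of 15858 to 16097, and to 19279 CPM in replicate 2, with an interval of 19166 to 19393. The level was higher in replicate 2, and the intervals do not overlap. They cover only the counting error of reads within each library, not the spread between pools. PCR copies of a molecule cannot be told apart, so for molecules the intervals may be too narrow. The mean was 17628 ± 2335 CPM (SD, n = 2), or 1.76% ± 0.233 of the gene counts. Against all reads of the library, unmapped and multiply mapped ones included, Mir21a made up 0.778% in replicate 1 and 1.01% in replicate 2. On the opposite strand the locus had 0 counts in replicate 1 and 4 in replicate 2.

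By mean CPM, Mir21a ranked 16 of 1973 genes, at 18 in replicate 1 and 14 in replicate 2. Ranks and shares are of counted reads. Reads that map to several loci are not in them, and genes with near copies may lose more such reads than Mir21a. The order may therefore differ from that of miRNA abundance. Of all genes, 716 had a count in at least 1 library, with a median of 2.21 CPM. The genes down to and including Mir21a held 61.9% of the counts. Mir143, known from smooth muscle and the most abundant gene, was 11.1 times as high as Mir21a in replicate 1 and 8.85 times in replicate 2. Mir21a stood at 9.03% and 11.3% of the level of Mir143 in these libraries.

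**Figure D1:**
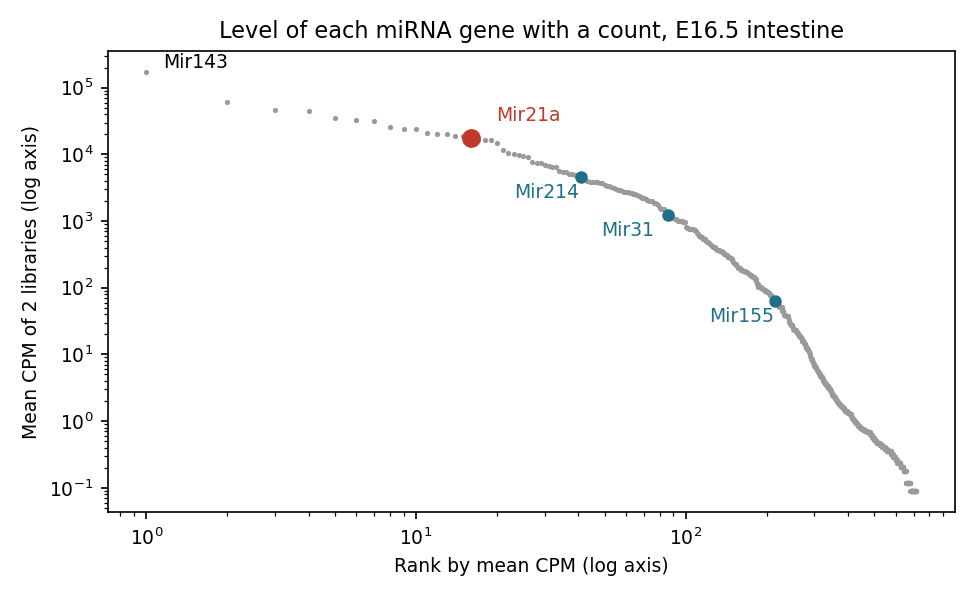
Mean CPM of the 2 libraries against rank, both on log axes, with 1 point for each of the 716 genes with a count. Mir21a (red) stands at rank 16 with 17628 CPM, on the shoulder of the curve, above the other genes marked in blue: Mir214 (4586 CPM), Mir31 (1239 CPM) and Mir155 (63.0 CPM).

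The place of Mir21a in the order of levels was not sharp. The range of the CPM values of the 2 libraries overlapped that of Mir21a for 6 genes, at ranks from 10 to 19. For 12 genes both values lay above the higher value of Mir21a, and for 1954 both lay below its lower value. The 6 genes include Mir200c, which maintains epithelial identity, Mir10b of the HoxD cluster, Mir375 of endocrine cells, Mir30e, and Mir322, which is linked to growth arrest. The remaining gene, Mir215 of the gut epithelium, ranks higher by its mean but varied more between the replicates.

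Of the 10 genes next to Mir21a in level, 4 changed places with it between the libraries. Mir21a was 0.824 times Mir200c in replicate 1 and 1.02 times in replicate 2. Against Mir10b the ratio was 0.816 in replicate 1 and 1.06 in replicate 2. Mir21a thus lay below both genes in replicate 1 and above both in replicate 2. Against Mir375 the ratio was 0.906 and 1.23, and against Mir322 it was 0.989 and 1.19, in replicates 1 and 2. Mir30e kept its place below Mir21a, with ratios of 1.06 and 1.11 in replicates 1 and 2.

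The other neighbours lay outside the values of Mir21a in both libraries. Above it were Mir17 (20824 ± 1267 CPM), the leading gene of the proliferation-associated miR-17/92 cluster, Mir23b (20488 ± 1473 CPM) and Mir130a (20043 ± 614 CPM). Below it were Mirlet7d (14702 ± 463 CPM), a let-7 gene of maturing tissues, and Mir23a (11490 ± 619 CPM), each with n = 2. Neighbours in level were compared by whether their values overlap, and no test between genes was run, since 2 libraries would leave it very weak. Any bias of library preparation for particular sequences, common to both libraries, is not part of that spread.

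**Figure D2:**
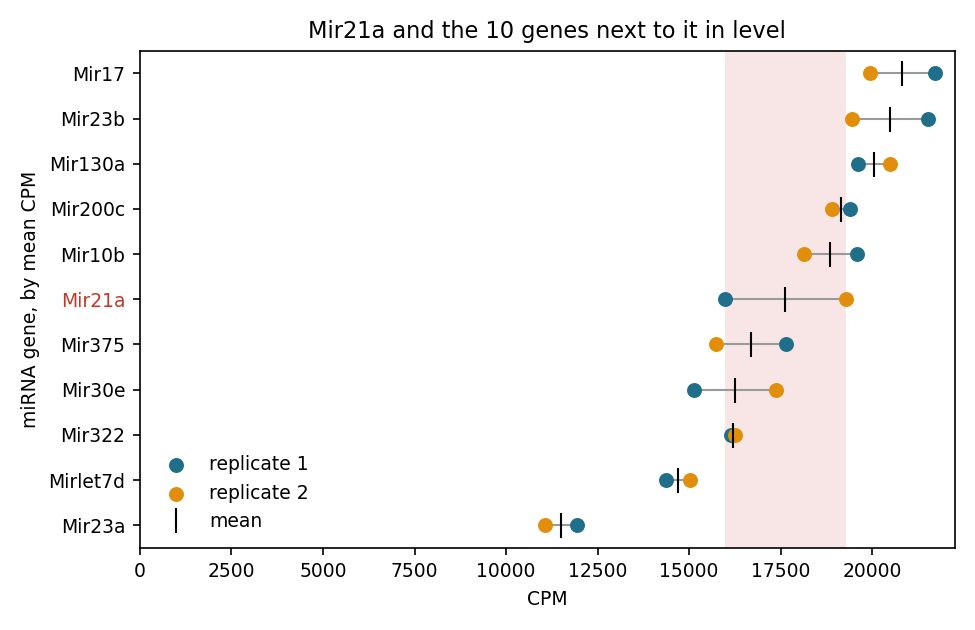
CPM of Mir21a and of the 5 genes next above and below it, in replicate 1 (blue) and replicate 2 (orange), with the mean as a tick and genes ordered by mean. The shaded band spans the 2 values of Mir21a, 15977 and 19279 CPM, and 5 of the 10 neighbours have a value inside it or a range that crosses it.

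Mir21a differed more between the replicates than most genes of its level. After TMM scaling its log2 ratio of replicate 1 to replicate 2 was -0.40 with a counting standard error of 0.0070, which is 1.32-fold higher in replicate 2. Counts were compared by an exact two-sided binomial test, adjusted by Benjamini-Hochberg over the 364 genes with at least 20 counts summed. Mir21a passed, and the base-10 logarithm of its adjusted p was -716. The call itself carries little, because 51.9% of the 364 genes passed the test, 27.5% as higher in replicate 1 and 24.5% as higher in replicate 2. The test compares 2 libraries, not conditions, and sets the ratio against counting error only. TMM scaling shifted the median log2 ratio of all genes by -0.13 relative to total counts. With total counts the ratio of Mir21a was -0.27, which also passed, and 57.7% of the genes passed, 45.1% as higher in replicate 1 and 12.6% as higher in replicate 2.

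Among the 20 other genes with a mean within 2-fold of Mir21a, from 9060 to 32837 CPM, the median log2 ratio was -0.17 with an SD of 0.21 across genes. The ratio of Mir21a differed from that median by -0.23. Of the 20 genes, 1 had a lower ratio, Mir215 at -0.79, and the highest was Mir99b at 0.24. The test called 19 of the 20, of which 15 were higher in replicate 2. The coefficient of variation of the CPM of Mir21a was 13.2%, against a median of 5.99% for the 20 genes, and it was larger in 2 of them, Mir215 (32.0%) and Mir99b (18.1%). By the log2 ratio, the genes of similar level most like Mir21a over these 2 libraries were Mir30e (-0.33), Mir26b (-0.29) and the epithelial Mir429 (-0.28).

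Epithelial markers differed between the replicates in the direction of Mir21a. Of 13 miRNAs known from intestinal epithelium, all detected in both libraries, 1, Mir375, was called as higher in replicate 1 and 12 as higher in replicate 2, and their median log2 ratio was -0.34, against 0.02 for all 364 genes tested. With total counts 2 were called as higher in replicate 1 and 10 as higher in replicate 2, and with DESeq2 size factors 0 and 12, where the ratio of Mir375 changed sign and did not pass. Over all 364 genes, 27.5% were called as higher in replicate 1 and 24.5% as higher in replicate 2 with TMM, and 45.1% and 12.6% with total counts. The 20 genes of similar level to Mir21a, some of them on this list, also leaned to replicate 2. Their median was -0.17, and 15 were called as higher there with TMM. Several of the 13 markers lie side by side in the genome, such as Mir200a, Mir200b and Mir429, so these are not 13 independent genes. The summed level of the list was 11.6% of the gene counts in replicate 1 and 13.3% in replicate 2. Mir21a stood at 0.138 of that sum in replicate 1 and 0.145 in replicate 2, so it varied less against the epithelial sum than against the gene total. This was not particular to epithelium. Mir21a stood at 9.26 and 9.88 times the summed neural markers, and at 161 and 160 times those of striated muscle, in replicates 1 and 2. The mesenchymal and blood sums are given below.

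Against the summed mesenchymal markers, of which 8 of 9 were detected in both libraries, Mir21a stood at 0.0816 in replicate 1 and 0.103 in replicate 2. These markers held 19.6% and 18.7% of the gene counts in replicates 1 and 2, with a median log2 ratio of 0.13. Most of their sum was Mir143, at 177010 of 195811 CPM in replicate 1 and 170594 of 187082 CPM in replicate 2. Of 8 tested, 5 were called as higher in replicate 1 and 2 as higher in replicate 2, beside 27.5% and 24.5% of all genes tested. Those higher in replicate 2 were Mir143 (-0.08) and Mir22 (-0.35). With total counts the numbers were 6 and 1, beside 45.1% and 12.6% of all genes, so much of that split is shared by all genes. The endothelial Mir126a had a log2 ratio of -0.26. Markers of blood made up 0.149% and 0.129% of the counts in replicates 1 and 2, and their median log2 ratio was 0.11. Of the 7 genes on the blood list, 6 had a row and 5 were detected in both libraries, and Mir142 had no row. Mir21a was 10.7 and 15.0 times as high as the sum of the blood list in replicates 1 and 2. That sum leaves out opposite-strand counts at its member Mir142b, which come to 1314 CPM in replicate 1 and 1485 CPM in replicate 2. With opposite-strand counts added, the list stood at 0.280% and 0.277% in replicates 1 and 2, and Mir21a at 5.70 and 6.95 times its sum. Neural markers made up 0.173% and 0.195% of the counts, the liver miRNA Mir122 0.0994% and 0.0448%, and markers of striated muscle 0.00992% and 0.0121%, in replicates 1 and 2. Markers of pancreas made up 0.000164% and 0.000475%. The median log2 ratio was -0.16 for the 6 neural markers tested and -0.78 for the 4 of striated muscle, beside 0.02 for all genes tested. For liver and pancreas 1 gene each was tested, Mir122 at 1.02 and Mir217 at -2.12. The part of the mix of cell types in the replicate ratio of Mir21a was not tested. In bulk tissue, fewer cells of a type and less RNA per cell cannot be told apart.

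Across the 94 genes with a mean of at least 1000 CPM, 4 had a lower log2 ratio than Mir21a. They were Mir215, Mir194-1, Mir194-2 and Mir141, all on the epithelial list. The mature miRNA of Mir194-1 is also that of Mir194-2, and Mir194-1 lies beside Mir215, so these are not 4 independent genes. Over all 364 genes tested, 30 others had a ratio as low or lower, of which 26 had a mean below 1000 CPM, and 12 of the 30 passed the test. Genes called as higher in replicate 2 by at least the ratio of Mir21a, itself included, made up 3.57% of those tested.

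**Figure D3:**
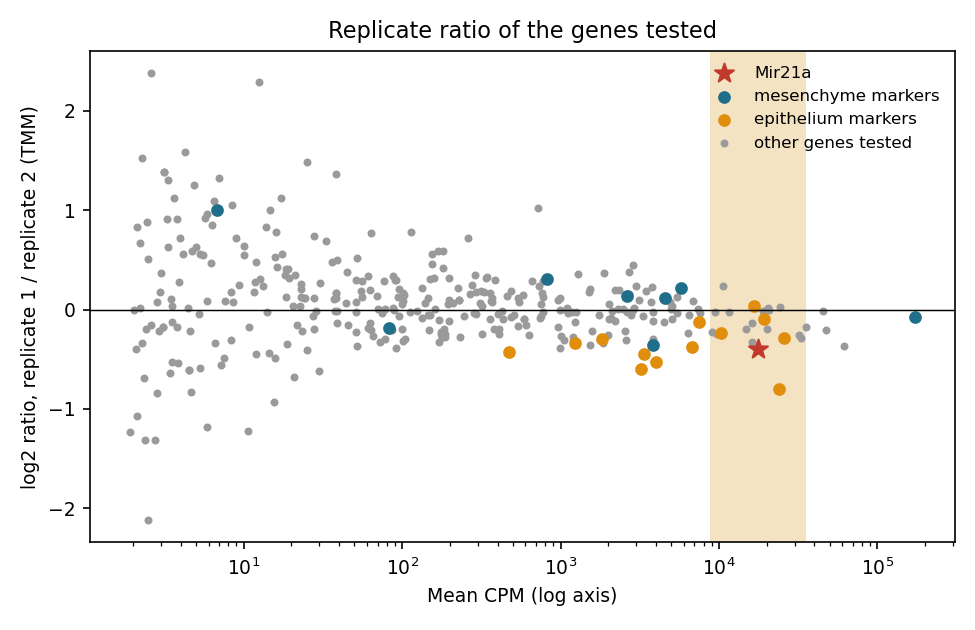
Log2 ratio of replicate 1 to replicate 2 after TMM scaling against mean CPM on a log axis, for the 364 genes tested, with the 2-fold window around Mir21a shaded. Mir21a (star, -0.40) lies in the lower part of the window. The epithelium markers (orange) have a median of -0.34 over all 13, and those inside the window run from -0.79 (Mir215) to 0.04 (Mir375). The mesenchyme markers (blue) have a median of 0.13.

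Mir21a far exceeded the other miRNAs known from injury and inflammation in the gut. The list of 12 genes held 1.96% of the counts in replicate 1 and 2.27% in replicate 2, and Mir21a alone made up 81.4% and 84.8% of that. Mir31, an epithelial miRNA raised in regenerating and inflamed mucosa, came next, at 1151 CPM in replicate 1 and 1327 CPM in replicate 2. Mir21a was 13.9 and 14.5 times as high as Mir31 in these libraries, a ratio that moved less between the replicates than either level. The myeloid Mir223 followed with 804 and 749 CPM, and Mir181b-2 with 752 and 564 CPM, in replicates 1 and 2. Mir146, the gene of miR-146a, a brake on NF-kB signalling, had 112 and 92.4 CPM, and Mir155 of activated immune cells had 70.2 and 55.8 CPM. Of 11 list members tested, 1 was higher in replicate 1, Mir181b-2, 2 were higher in replicate 2, Mir21a and Mir31, and 8 did not pass. Of all genes tested, 27.5% were higher in replicate 1 and 24.5% in replicate 2. With total counts 7 members were higher in replicate 1 and 2 in replicate 2, beside 45.1% and 12.6% of all genes. The median log2 ratio of the list was 0.07 with TMM, beside 0.02 for all genes tested.

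In a list of 9 miRNAs linked to fibrosis, Mir21a held 72.1% of the list's counts in replicate 1 and 78.8% in replicate 2. Mir214, a miRNA of mesenchyme, was next with 4983 CPM in replicate 1 and 4189 CPM in replicate 2, so that Mir21a was 3.21 and 4.60 times as high. Mir199b followed with 939 and 695 CPM, and Mir29a, a repressor of collagen genes, had 96.9 and 102 CPM, in replicates 1 and 2. Mir214 and Mir199b were called as higher in replicate 1 and Mir21a as higher in replicate 2, so these members did not all differ in one direction. Of 7 tested, 3 were called as higher in replicate 1 and 2 as higher in replicate 2, beside 27.5% and 24.5% of all genes, and their median log2 ratio was -0.18, beside 0.02 for all genes tested. Within this list 5 of the 8 other genes share at least 18 bases of a mature miRNA with another hairpin (2 of 11 in the injury and inflammation list), and their multiply mapped reads were not counted. The multiples of Mir21a over those genes are therefore of counted reads, and none is among Mir31, Mir214 and Mir223.

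The miR-17/92 cluster, whose genes Mir21a is often named with as growth-promoting miRNAs, held 3.73% of the counts over 6 genes in replicate 1 and 3.56% in replicate 2. Mir21a alone stood at 0.428 times that sum in replicate 1 and 0.541 times in replicate 2. It lay below Mir17 in both libraries, and above Mir20a (8754 and 9365 CPM), Mir18 (3602 and 4054 CPM) and Mir92-1 (3174 and 2233 CPM). In the cluster, Mir19b-1 and Mir92-1 share at least 18 bases of a mature miRNA with another hairpin, and their multiply mapped reads were not counted. The share of the cluster, and the level of Mir21a against it and against Mir92-1, are therefore of counted reads. Of the 6 genes, 1, Mir92-1, was called as higher in replicate 1 and 3 as higher in replicate 2, beside 27.5% and 24.5% of all genes. With total counts 2 were called in each direction, beside 45.1% and 12.6% of all genes.

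**Figure D4:**
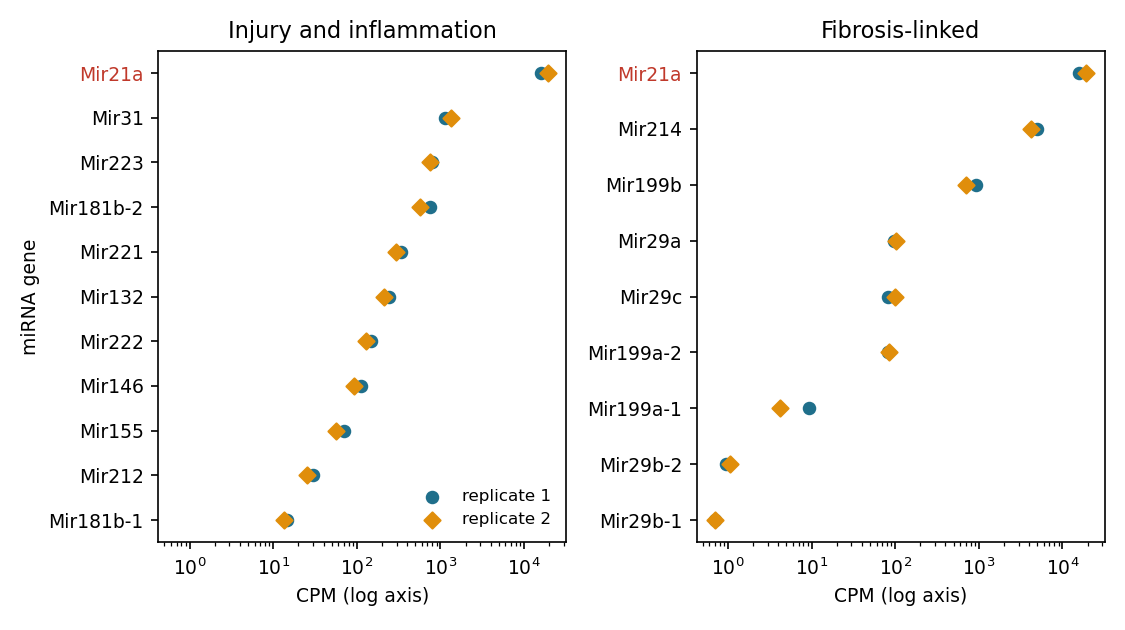
CPM on a log axis of the members of the injury and inflammation list (left) and of the fibrosis-linked list (right) with counts in both libraries, for replicate 1 (circles) and replicate 2 (diamonds). Mir21a heads both lists, 13.9 and 14.5 times above Mir31 and 3.21 and 4.60 times above Mir214 in replicates 1 and 2.

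None of the 5 nearest miRNA genes on each side of Mir21a on chromosome 11 came near its level. Of 117 miRNA genes of that chromosome, 62 had a count, and by mean level Mir21a came after Mir10a of the HoxB cluster only. It held 19.8% of the counts of chromosome 11 in replicate 1 and 24.3% in replicate 2. The nearest genes with a row were Mir5110, 823 kb away at lower coordinates, which had 0 counts in both libraries, and Mir301, 529 kb away at higher coordinates, with 1049 ± 88.0 CPM (n = 2). Of the 5 nearest genes on each side, 4 had counts on their own strand, and together the 10 had 1055 CPM. Besides Mir301 these were Mir378b (3.11 CPM), Mir365-2 (2.76 CPM) and Mir3063 (0.411 CPM). Mir142b, 1173 kb away, had 0 counts on its own strand and 5602 and 8434 on the opposite strand, in replicates 1 and 2.

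A place in the untranslated region of a coding gene was uncommon among abundant miRNAs. How common it is among the less abundant miRNA genes was not examined. Of the 94 genes with a mean of at least 1000 CPM, 52 hairpins lay outside protein-coding genes of the same strand and 33 lay in introns. A further 6 overlapped an exon with no coding part or untranslated region annotated there, and 3 overlapped an untranslated region. Those 3 were Mir21a, Mir324 and Mir27b, and Mir21a was the most abundant of them. The 3 genes held 2.18% of the gene counts, against 30.6% for the genes in introns and 57.8% for those outside coding genes.

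Within the 2-fold window of level, Mir21a also differed from most genes in having no detected gene with the same seed among those matched to RefSeq. Of the 20 other genes, 16 shared a seed of either arm with at least 1 other gene detected in both libraries, and the median of their longest stretch shared with another hairpin was 11.5 bases, against 15 bases for Mir21a. By the arms listed in RefSeq, the genes without such a partner were Mir126a, Mir23b, Mir375 and Mir23a. For Mir23a and Mir23b this may be due to the listing, which holds 1 arm for Mir23b. A mature miRNA of Mir23a shares 18 bases with the Mir23b hairpin, so they may be partners of each other. The count of 16 may therefore be too low.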

How the data were processed

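The deposited values are whole-number counts of reads per miRNA gene, not normalized as their unequal totals show. The readme files give mm10 and GENCODE M4 as assembly and annotation. No aligner or counter is named in the sources used here. Every table has 3 unnamed count columns (both strands, then each strand) and 4 rows that name no gene. Both strands added up to the first column for each gene, and the strand with nearly all counts was taken as that of the gene. Of 8747512 and 10876035 reads in replicates 1 and 2, 48.7% and 52.2% were so counted, 19.5% and 17.2% were unmapped and 3.69% and 2.88% lay outside miRNA genes. Symbols and places came from GENCODE M21, which holds 1894 of the 1973 identifiers, and list names without a row were looked up among RefSeq synonyms. The RefSeq sequences match 869 of the genes by symbol.

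CPM were computed from counts on that strand and their total in each library. edgeR's quasi-likelihood test needs a contrast and was not used. The share expected in the binomial test came from library sizes scaled by TMM in edgeR 4.0.16 over genes with at least 20 counts summed, with a threshold of 0.05 on the adjusted p and a prior of 0.5 counts in log2 ratios. It was tested on simulated data. Alternatives were unstranded counts, other denominators, each replicate alone, total counts, DESeq2 1.42.0 size factors, other count minimums, priors and level windows, and a 1.5-fold minimum. Named genes were the 5 next to Mir21a on each side in level and on chromosome 11, the 3 nearest in replicate ratio, the top 4 of each list and the most abundant gene. Others, such as Mir155, Mir146, Mir99b and the genes with ratios below that of Mir21a, were chosen after their values were seen. The gene and the lists were chosen with earlier results of these data known. Python 3.11.15, scipy 1.17.1 and R 4.3.3 were used.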

Additional observations from a re-analysis of the deposited data

Results flagged for a closer look

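Reads on the opposite strand, which the levels above do not use, exceeded the limit of 3 counts at 6 of the genes named. At Mir21a there were 0 in replicate 1 and 4 in replicate 2, beside 109520 on its own strand. At Mir126a there were 45 in replicate 1 and 46 in replicate 2, and at Mir130a 5 in replicate 1 and 7 in replicate 2. Mir194-1 had 0 in replicate 1 and 4 in replicate 2, and Mir324 had 1 in replicate 1 and 4 in replicate 2. At Mir142b, the second nearest gene to Mir21a with higher coordinates, there were 5602 in replicate 1 and 8434 in replicate 2, with 0 on its own strand. With 2 libraries no group was large enough to look for outlying samples.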

How the results depend on the processing

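Of 43 values recomputed under alternatives, 38 were rated as unchanged and 0 reversed. For the replicate ratio of Mir21a this meant the same direction and call. Levels, ranks, shares and the multiple of the blood list had to stay within the SD of the replicates. The difference from genes of similar level had to stay within the SD across those genes. The number of genes past the replicate test had to stay within 1.5-fold, whatever their direction. That tally is not a measure of robustness, because some of the 38 could not have come out otherwise. With 2 libraries, a level or share from either replicate alone always lies within their SD of the mean. The seed family share stays at 100% while Mir21c has 0 counts. The count minimums tried leave the ratio of Mir21a unchanged, and a change of scaling leaves its difference from genes of similar level unchanged. The level of Mir21a was 8927 CPM with all reads as denominator and 21329 CPM with Mir143 left out of the total, as the changed denominators give, and 15977 to 19279 CPM from either replicate alone. Its rank was 14 to 18 from either replicate alone and 17 with unstranded counts. Its replicate ratio stayed negative under each scaling and filter tried, from -0.44 with DESeq2 size factors to -0.27 with total counts. With opposite-strand counts added to the blood list, chosen after seeing the data, Mir21a stood at a mean of 6.33 times that list, against 12.8 as reported. The number of genes past the replicate test was 40 when a ratio of at least 1.5-fold was also required, which Mir21a does not reach. With total counts 164 genes were higher in replicate 1 and 46 in replicate 2, with DESeq2 size factors 86 and 111, and with TMM 100 and 89. With DESeq2 size factors the log2 ratio of Mir375 was -0.0040 and was no longer called. The share of the miR-17/92 cluster was 3.51% with unstranded counts, against 3.65% as reported, because the total is larger. From either replicate alone, the list shares were 1.60% to 1.93% for the miR-21 family, 1.96% to 2.27% for injury and inflammation, 2.22% to 2.45% for fibrosis and 3.56% to 3.73% for miR-17/92, and the seed family share was 100% in each. No paired analysis was possible because the design holds 1 group. Counting error is small for Mir21a at this depth, and 2 libraries give little knowledge of the spread between pools.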
